A study of Mus musculus with 6 samples.

Results

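The genes described here are 39 genes of mitosis and the G2/M transition, out of 55359 genes in the count table. They were chosen by symbol from what is known of their function, with earlier results of these data also known. All 39 were found in the table and all 39 passed the expression filter, among 11190 genes tested. They were measured by poly(A) RNA-seq in cultures of myeloid-derived suppressor cells (MDSCs), immature cells of the myeloid lineage known for damping T cells. The cells were grown from bone marrow of C57BL/6 mice over 4 days with GM-CSF and IL-6 at 40 ng/ml each, after which a commercial kit was used to isolate polymorphonuclear MDSCs, and they were then plated again in fresh medium. In the tested cultures (mtDNA, 3 libraries) mitochondrial DNA at 250 ng/ml was delivered with a lipid transfection reagent, and in the blank cultures (3 libraries) it was not. RNA was taken 12 h later. The labels do not state whether blank cells received the reagent, nor whether libraries came from separate mice, so p-values speak only for the scatter of these libraries, and that scatter may be technical.

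Library totals ran from 4144481 to 4911103 counts in mtDNA libraries and from 4018360 to 4796800 in blank libraries, so that a single read stands for 0.2004 to 0.2555 CPM (TMM-scaled counts per library). The label of the cells was checked against markers. Summed neutrophil granule and maturity genes stood at 8082 to 8736 CPM in mtDNA and 7788 to 8162 CPM in blank libraries, while the neutrophil surface gene Ly6g had only 4.86 to 7.07 CPM in mtDNA and 4.24 to 5.97 CPM in blank libraries. Monocyte and macrophage markers were also abundant as a sum, though bulk RNA cannot show which cells carried them. All 10 of these markers had reads, and 6 of 10 were called higher after mtDNA, where 11.9% of all tested genes were. Their sum was 4546 to 4851 CPM in mtDNA and 3586 to 3722 CPM in blank libraries. Primary granule and progenitor genes summed to 737 to 802 CPM in mtDNA and 722 to 799.7 CPM in blank libraries. Of these 1 of 8 was called lower (5.98% of all tested genes were), the progenitor receptor gene Kit. Only 2 of the 8 had a log2 fold change (mtDNA minus blank) below 0, against 52% of all tested genes, and their median was 0.03. Dendritic cell markers summed to 755 to 762 CPM in mtDNA and 720.3 to 734 CPM in blank libraries. Stroma and endothelium markers summed to 98.1 to 108 CPM in mtDNA and 48.7 to 61.4 CPM in blank libraries, with 1 of 3 tested genes called higher. Their log2 fold changes ran from -0.33 to 2.40 with a median of 0.03. Basophil, mast and eosinophil markers summed to 268 to 285 CPM in mtDNA and 236 to 254 CPM in blank libraries. For B and plasma cell markers the sums were 73.5 to 85.3 CPM in mtDNA and 68.1 to 85.5 CPM in blank libraries. The part of cell composition in the results below was not tested.

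Cells enter mitosis when CDK1, bound to cyclin A or B, is switched on by CDC25 phosphatases. Polo-like and Aurora kinases then build the spindle, condensins compact the chromosomes, kinetochores attach them to microtubules, and the spindle checkpoint holds back the anaphase-promoting complex until every chromosome is attached. Most of these genes are transcribed in waves that peak late in the cell cycle, so in a population their RNA tracks how many cells are cycling; myeloid progenitors divide, and their mature descendants largely do not.

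After mtDNA, RNA of the mitosis genes was lower as a group by a modest amount. Of the 39 genes, 19 were called lower and 0 higher by edgeR (adjusted p under 0.05), or 48.7% lower, where 5.98% of all tested genes were called lower and 11.9% higher. All 39 had a log2 fold change (mtDNA minus blank) below 0, against 52% of all tested genes, and none of the 39 was higher at an unadjusted p under 0.05. The median was -0.28, against -0.01 over all tested genes. The genes were chosen with earlier results of these data known, so such contrasts, here and below, are descriptions and no test of the group. The 19 called genes lay between -0.86 (Cenpf) and -0.21 (Top2a), that is 45% to 13.5% less RNA, and 0 of the 39 fell by as much as 2-fold. The other 20 lay between -0.44 and -0.01. In bulk RNA, fewer cells in mitosis and less RNA per cell cannot be told apart.

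The 39 genes together took 0.191%, 0.211% and 0.224% of all counts in mtDNA libraries 1, 2 and 3, against 0.272%, 0.27% and 0.281% in blank libraries 1, 2 and 3. The exact 95% binomial intervals, which cover counting error only, reached from 0.187% to 0.228% over the mtDNA libraries and from 0.265% to 0.286% over the blank libraries. As a sum of TMM-scaled CPM they stood at 2020.2, 2192 and 2329 in mtDNA and 2631, 2592 and 2696 in blank libraries, a mean of 2180.4 ± 155 against 2639.7 ± 52.8 (SD, n = 3 each), or 17.4% less. The groups did not overlap in the sum, and mtDNA library 1 was the lowest. That library held the lowest value of 21 of the 39 genes, against 8 in mtDNA 2 and 9 in mtDNA 3, and the highest values of 38 genes were spread over the blank libraries. In 22 of 39 genes (56.4%) every mtDNA library lay below every blank library, which 15.6% of all tested genes did.

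The count of calls depended on the method more than the direction did. DESeq2 called 4 of the 39 lower (Incenp, Cdc20, Anln and Ncapg; 1.4% of its genes) and 17 at an unadjusted p under 0.05, a test against a fold of 1.2 called 0 (7 at an unadjusted p under 0.05; 0.492% of all genes), and leaving out mtDNA 1 left 9 calls (3.82% of all genes). Scaling by library totals gave 31 calls (21.1% of all genes, with the median of all genes at -0.13), upper-quartile factors 28 (13.4%) and removal of the trend with GC content 29 (8.84%). Without mtDNA 3 there were 18 (4.24%), and neighbouring title numbers as a block gave 24 (6.68%).

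**Figure D1:**
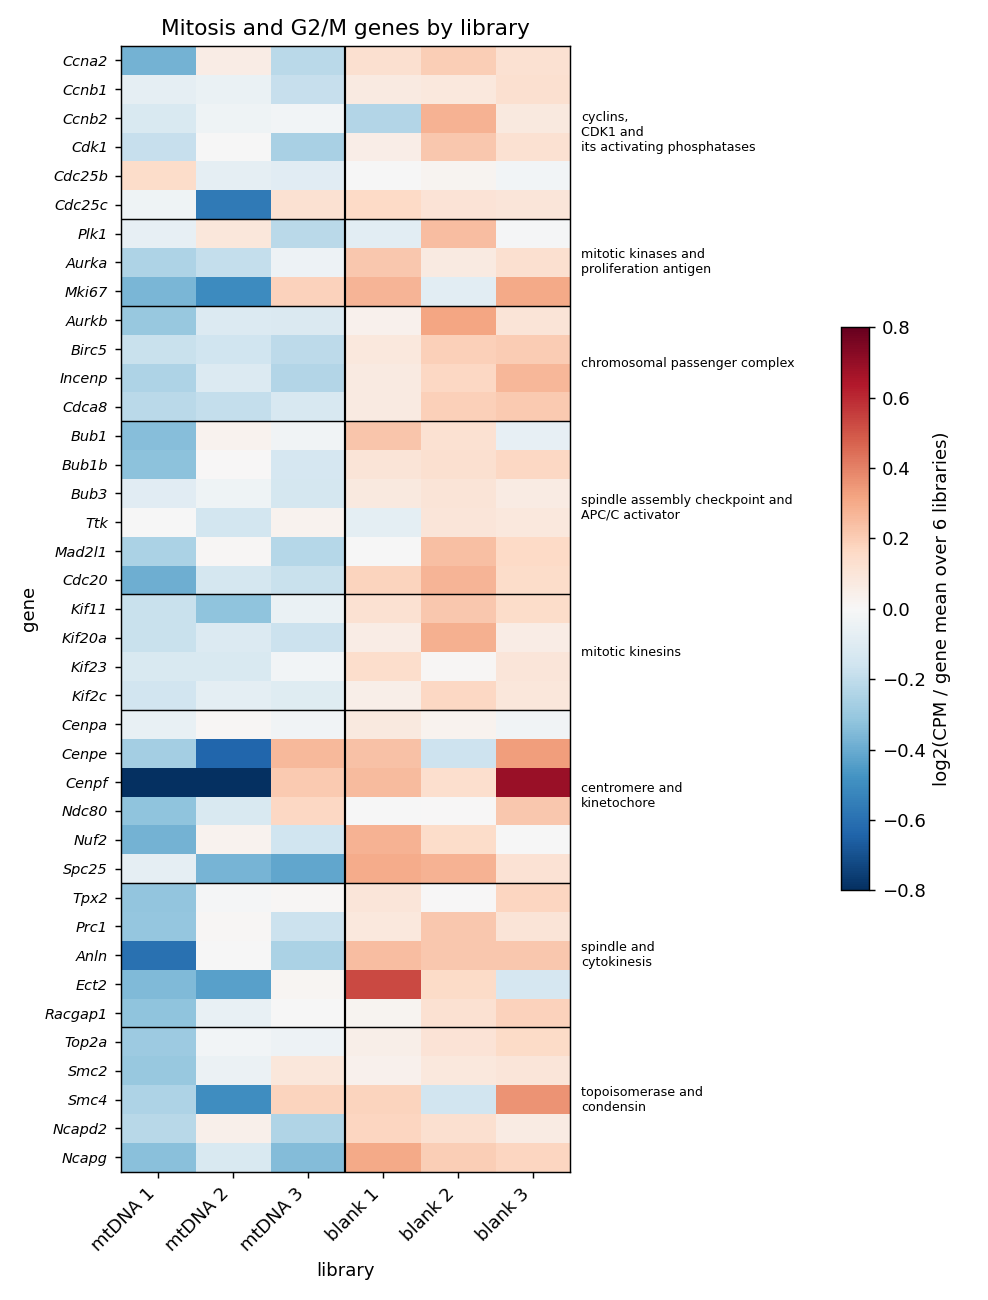
Level of each of the 39 genes (rows, grouped by role) in each library (columns, mtDNA left), as log2 of CPM over the gene's mean across the 6 libraries, with colours capped at 0.8 in either direction. The mtDNA columns are mostly below the gene mean and mtDNA 1 is the lowest column for 21 genes, while Cenpf, Cenpe, Mki67 and Smc4 are high in mtDNA 3.

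**Figure D2:**
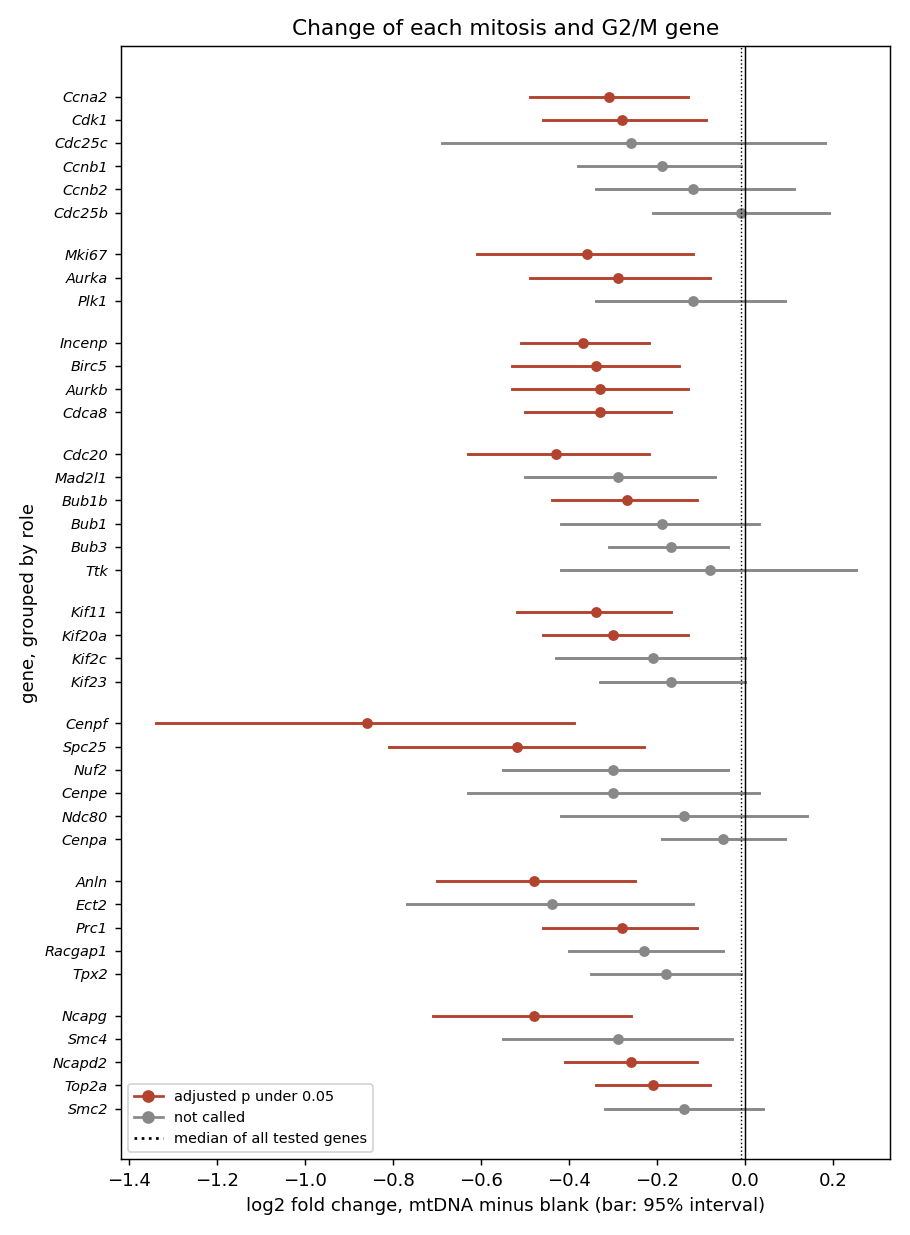
log2 fold change (mtDNA minus blank) of each gene with its 95% interval, from edgeR, grouped by role in the order of the text. All 39 points lie left of 0, 19 of them called, and the dotted line marks the median of all tested genes at -0.01.

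Promoters are shown because the genes moved in 1 direction, and because late cell-cycle promoters are known for a shared architecture. Textbook elements are CCAAT boxes, bound by the factor NF-Y, and a cell cycle genes homology region (CHR) close to the transcription start, through which the DREAM complex represses and B-MYB with FOXM1 activates in G2. RefSeq windows (GRCm38.p6, 250 bases before to 50 after an annotated start) were at hand for 32 of the 39 genes, in 35 windows; Ccna2, Cdc25c, Aurkb, Incenp, Kif20a, Tpx2 and Smc4 had no entry. Both strands were searched for CCAAT, for the CHR letters TTTGAA or TTTAAA and for the E2F letters TTTCGCGC or TTTGGCGC. The CHR letters were in 31 of 35 windows (88.6%), against 27.6% of all 32851 windows in the table, and within 50 bases of the start in 26 (74.3%) against 8.28%. CCAAT was in 29 (82.9%) against 37.4%, at least 2 copies of it in 18 (51.4%) against 11.7%, and the E2F letters in 2 (5.71%) against 0.813%. These shares are descriptions of the letters and were not tested. The windows of the 6 called genes with the smallest p that the table holds follow, 5′ to 3′ along the gene, with capitals for CCAAT (or ATTGG) and CHR letters on either strand.
Ncapg (chr5:45669675-45669974, plus strand): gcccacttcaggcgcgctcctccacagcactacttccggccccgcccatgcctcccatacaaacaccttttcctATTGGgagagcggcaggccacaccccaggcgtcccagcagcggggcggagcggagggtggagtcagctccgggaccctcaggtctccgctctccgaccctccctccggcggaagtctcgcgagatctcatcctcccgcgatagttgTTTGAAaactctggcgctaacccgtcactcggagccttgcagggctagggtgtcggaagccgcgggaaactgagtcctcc
Anln (chr9:22389157-22389456, minus strand): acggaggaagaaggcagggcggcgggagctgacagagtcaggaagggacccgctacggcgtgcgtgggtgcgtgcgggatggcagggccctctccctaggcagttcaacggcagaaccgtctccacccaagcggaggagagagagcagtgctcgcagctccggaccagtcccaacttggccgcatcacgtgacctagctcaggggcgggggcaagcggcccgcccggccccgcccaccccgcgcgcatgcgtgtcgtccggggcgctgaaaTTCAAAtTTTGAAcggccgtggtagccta
Cdc20 (chr4:118437294-118437593, minus strand): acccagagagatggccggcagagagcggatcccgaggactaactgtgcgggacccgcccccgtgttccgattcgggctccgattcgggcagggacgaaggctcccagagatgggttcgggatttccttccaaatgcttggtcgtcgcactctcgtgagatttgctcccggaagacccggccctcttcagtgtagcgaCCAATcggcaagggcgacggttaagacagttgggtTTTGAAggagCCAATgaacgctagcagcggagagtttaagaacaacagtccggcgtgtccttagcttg
Cdca8 (chr4:124936868-124937167, minus strand): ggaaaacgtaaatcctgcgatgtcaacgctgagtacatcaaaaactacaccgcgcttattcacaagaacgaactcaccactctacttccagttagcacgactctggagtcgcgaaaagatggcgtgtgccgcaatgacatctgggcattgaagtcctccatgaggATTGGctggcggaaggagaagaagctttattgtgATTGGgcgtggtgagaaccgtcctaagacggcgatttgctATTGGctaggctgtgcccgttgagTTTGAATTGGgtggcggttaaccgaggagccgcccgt
Kif11 (chr19:37376132-37376431, plus strand): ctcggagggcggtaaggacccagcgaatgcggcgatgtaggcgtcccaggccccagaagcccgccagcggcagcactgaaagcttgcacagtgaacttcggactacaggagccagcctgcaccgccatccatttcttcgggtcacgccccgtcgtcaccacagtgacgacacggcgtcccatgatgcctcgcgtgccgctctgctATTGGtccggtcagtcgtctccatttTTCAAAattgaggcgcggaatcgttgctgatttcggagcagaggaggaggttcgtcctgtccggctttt
Cenpf (chr1:189688037-189688336, minus strand): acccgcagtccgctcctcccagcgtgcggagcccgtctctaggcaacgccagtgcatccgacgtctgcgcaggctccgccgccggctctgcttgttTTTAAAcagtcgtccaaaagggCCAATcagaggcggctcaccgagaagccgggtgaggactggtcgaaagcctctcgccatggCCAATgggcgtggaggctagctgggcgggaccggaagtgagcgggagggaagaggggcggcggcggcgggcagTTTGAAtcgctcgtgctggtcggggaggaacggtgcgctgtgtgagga

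In Ncapg the CHR letters begin 30 bases before the start (position -30), in Kif11 at -19 and in Cdc20 at -18, between CCAAT boxes at -53 and -8. In Cdca8 a CCAAT box on the reverse strand runs into the CHR letters, which begin at 13 after the start, and 3 further CCAAT boxes begin at -85, -51 and -11. Cenpf has CHR letters at -154 and 2 with CCAAT boxes at -132 and -71. The Anln window holds the CHR letters facing both ways, at 21 and 28, and no CCAAT. Both letters together occurred in 13 of the 15 called genes with a window and in 11 of the 17 uncalled ones. Counted by window, they occurred in 27 of 35 (77.1%), against 10.7% of all 32851 windows. Neither contrast was tested.

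Among the cyclins, CDK1 and its phosphatases, 2 of 6 genes were called lower, where 5.98% of all tested genes were, and all 6 lay below 0. Ccna2 (ENSMUSG00000027715), the cyclin A that acts from S phase into early mitosis, had 66.7, 90.6 and 74.7 CPM in the mtDNA libraries, against 95.1, 99.6 and 94.3 CPM in the blank libraries. The groups did not overlap, and the log2 fold change was -0.31 ± 0.0852 (SE; edgeR adjusted p = 0.0129). Cdk1 (ENSMUSG00000019942), the kinase that drives entry into mitosis, had 44.7, 50.8 and 42.5 CPM in the mtDNA libraries, against 52.7, 59.1 and 55.4 CPM in the blank libraries. It fell by 0.28 on the log2 scale (SE 0.0888, edgeR adjusted p = 0.0329), again without overlap. The call of Ccna2 ended without mtDNA 1 (adjusted p = 0.0723) or mtDNA 3 (0.0509), and that of Cdk1 without mtDNA 1 (0.082), mtDNA 3 (0.147), blank 2 (0.138) or blank 3 (0.0763). Ccnb1, the main mitotic cyclin, had 40.6, 41.1 and 37.5 CPM in the mtDNA libraries, against 44.7, 45.1 and 46.6 CPM in the blank libraries. Its groups did not overlap either, but its log2 fold change of -0.19 (95% interval -0.38 to -0.01) missed the threshold (edgeR adjusted p = 0.14). Ccnb2, the second B-type cyclin, lay at -0.12 (-0.34 to 0.11). Of the phosphatases that activate CDK1, Cdc25b lay at -0.01 (-0.21 to 0.19), with 39.4 ± 3.72 CPM in mtDNA and 39.4 ± 0.589 CPM in blank libraries (SD, n = 3 each), and Cdc25c at -0.26 (-0.69 to 0.18) with 92 reads in mtDNA and 111 in blank libraries.

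Aurka and Mki67 were called lower, as 5.98% of all tested genes were, and Plk1 was not called, though all 3 lay below 0. Aurka (ENSMUSG00000027496), the kinase of centrosomes and spindle poles, had 29.9, 31.1 and 34.5 CPM in the mtDNA libraries, against 41.2, 37.3 and 38.7 CPM in the blank libraries. The groups did not overlap, but the call (log2 -0.29 ± 0.0986, edgeR adjusted p = 0.0467) stood just inside the threshold and ended in 5 of the 6 omissions of a library, with adjusted p of 0.134 without mtDNA 1, 0.131 without mtDNA 2, 0.148 without blank 1, 0.057 without blank 2 and 0.0947 without blank 3. Mki67 (ENSMUSG00000031004), which encodes the proliferation antigen Ki-67 that coats mitotic chromosomes, had 252, 229 and 369 CPM in the mtDNA libraries, against 392, 306 and 399.7 CPM in the blank libraries. Here mtDNA 3 lay above blank 2, so the groups overlapped. Its log2 fold change of -0.36 ± 0.119 (edgeR adjusted p = 0.0366) became -0.61 without mtDNA 3 and -0.23 without mtDNA 2. The call ended without mtDNA 1 (adjusted p = 0.143), mtDNA 2 (0.174), blank 1 (0.115) or blank 3 (0.203), and with robust dispersion (0.409). Plk1, the polo-like kinase that acts throughout mitosis, had 43.7, 48.8 and 39.4 CPM in the mtDNA libraries, against 43.1, 54.3 and 45.4 CPM in the blank libraries. The groups overlapped, and the log2 fold change of -0.12 had a 95% interval of -0.34 to 0.09.

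The chromosomal passenger complex corrects faulty attachments at centromeres and later directs the cleavage furrow. It was the role in which all 4 of 4 genes were called lower, where 5.98% of all tested genes were. In each of its genes every mtDNA library lay below every blank library, as in 15.6% of all tested genes. Incenp (ENSMUSG00000024660), its scaffold, had 84.1, 92.5 and 84.9 CPM in the mtDNA libraries, against 105, 112 and 120.1 CPM in the blank libraries. That change, log2 -0.37 ± 0.0692, had the smallest adjusted p of the 39 genes (edgeR, 0.000516). Birc5 (ENSMUSG00000017716), which encodes survivin, had 33.7, 34.1 and 33 CPM in the mtDNA libraries, against 40.3, 43.5 and 43.9 CPM in the blank libraries. It fell by 0.34 on the log2 scale (SE 0.0923, edgeR adjusted p = 0.0119). Cdca8 (ENSMUSG00000028873), which encodes borealin, had 46.3, 47.3 and 49.3 CPM in the mtDNA libraries, against 56.5, 61.5 and 62.3 CPM in the blank libraries (log2 -0.33 ± 0.0808, edgeR adjusted p = 0.00511). Aurkb (ENSMUSG00000020897), the kinase of the complex, had 38.1, 43.7 and 43.4 CPM in the mtDNA libraries, against 48.3, 58.5 and 50.6 CPM in the blank libraries (log2 -0.33 ± 0.0946, edgeR adjusted p = 0.0172). The calls of Incenp, Birc5 and Cdca8 held in each of the 6 omissions of a library, and that of Aurkb ended without mtDNA 1 (adjusted p = 0.0746) or blank 2 (0.128).

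In the spindle checkpoint, 2 of 6 genes were called lower (5.98% of all tested genes were), and all 6 lay below 0. Cdc20 (ENSMUSG00000006398), the activator of the anaphase-promoting complex that the checkpoint restrains, had 28.1, 33.4 and 32.6 CPM in the mtDNA libraries, against 41.7, 44.5 and 40.8 CPM in the blank libraries. All mtDNA libraries were lower, with a log2 fold change of -0.43 ± 0.0983 (edgeR adjusted p = 0.00338) that stayed called in each of the 6 omissions. Bub1b (ENSMUSG00000040084), which encodes the checkpoint protein BUBR1, had 59.3, 74.5 and 67.9 CPM in the mtDNA libraries, against 79.8, 81.4 and 83.6 CPM in the blank libraries. It fell by 0.27 on the log2 scale (SE 0.079, edgeR adjusted p = 0.0194), a call that ended without mtDNA 1 (0.0968) or blank 3 (0.0773). The checkpoint kinases Bub1 and Ttk lay at -0.19 (95% interval -0.42 to 0.03) and -0.08 (-0.42 to 0.25). Bub3, the partner of BUB1 and BUBR1, lay at -0.17 (-0.31 to -0.04) with no overlap between groups (edgeR adjusted p = 0.0636), and Mad2l1, which encodes the CDC20 inhibitor MAD2, at -0.29 (-0.50 to -0.07; edgeR adjusted p = 0.0666, but 0.0343 without mtDNA 2 and 0.0427 without blank 1).

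Of the 4 mitotic kinesins, 2 were called lower, where 5.98% of all tested genes were. In all 4 every mtDNA library lay below every blank library, as in 15.6% of all tested genes. Kif11 (ENSMUSG00000012443), the motor that pushes spindle poles apart, had 48.6, 44.1 and 53.1 CPM in the mtDNA libraries, against 59.8, 63.9 and 60.9 CPM in the blank libraries. Its log2 fold change of -0.34 ± 0.0846 (edgeR adjusted p = 0.00629) lost the call without mtDNA 2 (0.0521). Kif20a (ENSMUSG00000003779), a kinesin of the central spindle, had 59.5, 62.5 and 59.7 CPM in the mtDNA libraries, against 70.2, 82.2 and 70.2 CPM in the blank libraries. It fell by 0.30 on the log2 scale (SE 0.0791, edgeR adjusted p = 0.011), a call that ended without blank 2 (log2 -0.21, adjusted p = 0.102). Kif23, which bundles microtubules in the midzone, lay at -0.17 (95% interval -0.33 to -0.00), and Kif2c, which depolymerises microtubules at centromeres, at -0.21 (-0.43 to 0.00).

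At centromeres and kinetochores 2 of 6 genes were called lower (5.98% of all tested genes were), and all 6 lay below 0. The group held both the largest and one of the smallest differences. Cenpf (ENSMUSG00000026605), a large kinetochore protein that accumulates in G2, had 10.7, 9.42 and 24.6 CPM in the mtDNA libraries, against 25.4, 23.4 and 34.4 CPM in the blank libraries. Only mtDNA 1 and mtDNA 2 were low, and mtDNA 3 lay inside the blank range. The log2 fold change of -0.86 ± 0.228 (edgeR adjusted p = 0.0103) ranged from -0.60 to -1.45 over the alternatives; the call ended without mtDNA 1 (0.0546), mtDNA 2 (0.057) or blank 3 (0.1) and with robust dispersion (0.276), and the value was -1.45 without mtDNA 3. Spc25 (ENSMUSG00000005233), a subunit of the NDC80 complex that grips microtubules, had 16.6, 13.5 and 13.1 CPM in the mtDNA libraries, against 21.4, 21.2 and 18.9 CPM in the blank libraries. It fell by 0.52 on the log2 scale (SE 0.139, edgeR adjusted p = 0.0106; 0.0523 without mtDNA 3), with no overlap. Its partners in that complex were not called: Ndc80 had 16.6, 19.1 and 23.3 CPM in the mtDNA libraries, against 20.7, 20.8 and 24.1 CPM in the blank libraries (log2 -0.14, 95% interval -0.42 to 0.14), and Nuf2 lay at -0.30 (-0.55 to -0.04; edgeR adjusted p = 0.105). Cenpe, a kinesin that moves chromosomes to the spindle equator, had 31.2, 24.2 and 45.1 CPM in the mtDNA libraries, against 44.3, 33.5 and 47.5 CPM in the blank libraries. It overlapped between groups (log2 -0.30, 95% interval -0.63 to 0.03; edgeR adjusted p = 0.224), and was called only when mtDNA 3 was omitted (-0.59, adjusted p = 0.00565), without the expression filter (0.04) or with the replicate block (0.033). Cenpa, the histone variant that marks centromeres, lay at -0.05 (-0.19 to 0.09), so that a fall beyond log2 -0.19 was outside its interval.

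Among genes of the spindle and of cytokinesis 2 of 5 were called lower (5.98% of all tested genes were), and all 5 lay below 0. Anln (ENSMUSG00000036777), which encodes the actin-binding scaffold anillin of the cleavage furrow, had 28.6, 43.1 and 36.2 CPM in the mtDNA libraries, against 51.3, 50.1 and 50.1 CPM in the blank libraries. The blank libraries lay close together and above all mtDNA libraries, and the log2 fold change of -0.48 ± 0.109 (edgeR adjusted p = 0.00329) stayed called in each of the 6 omissions. Prc1 (ENSMUSG00000038943), which cross-links microtubules of the central spindle, had 53.7, 66.8 and 59.1 CPM in the mtDNA libraries, against 70.6, 77.1 and 71.4 CPM in the blank libraries. It fell by 0.28 on the log2 scale (SE 0.0823, edgeR adjusted p = 0.0187), a call that ended without mtDNA 1 (0.0912), mtDNA 3 (0.059) or blank 2 (0.0913). Tpx2, which targets AURKA to the spindle, had 58.8, 73 and 73.7 CPM in the mtDNA libraries, against 78.4, 73.5 and 82.6 CPM in the blank libraries. Here mtDNA 3 lay just above blank 2, and the log2 fold change was -0.18 (95% interval -0.35 to -0.01; edgeR adjusted p = 0.154). Ect2, the exchange factor that activates RhoA at the furrow, was the uncalled gene closest to the threshold (log2 -0.44 ± 0.155, edgeR adjusted p = 0.051), and was called without mtDNA 3 (0.0156) or blank 3 (0.0188). Racgap1, its activating partner, lay at -0.23 (-0.40 to -0.05; edgeR adjusted p = 0.074) with no overlap, and was called without mtDNA 3 (0.0442).

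Of topoisomerase II alpha and the condensin subunits, 3 of 5 were called lower (5.98% of all tested genes were), and all 5 lay below 0. Top2a (ENSMUSG00000020914), which untangles sister chromatids, had 179, 216 and 213 CPM in the mtDNA libraries, against 226, 236 and 243 CPM in the blank libraries. Its log2 fold change of -0.21 ± 0.0646 (edgeR adjusted p = 0.0272) became -0.14 without mtDNA 1 (0.134), and the call also ended without blank 2 (0.0571) or blank 3 (0.122). Ncapg (ENSMUSG00000015880), a regulatory subunit of condensin I, had 22.2, 25.7 and 22 CPM in the mtDNA libraries, against 34.6, 32.1 and 31.5 CPM in the blank libraries. The groups were well apart, and the fall of 0.48 on the log2 scale (SE 0.109, edgeR adjusted p = 0.00288) stayed called in each of the 6 omissions. Ncapd2 (ENSMUSG00000038252), another condensin I subunit, had 104, 125 and 103 CPM in the mtDNA libraries, against 137, 133 and 127 CPM in the blank libraries. It fell by 0.26 on the log2 scale (SE 0.0717, edgeR adjusted p = 0.014), a call that ended without mtDNA 1 (0.0554), mtDNA 3 (0.0856) or blank 1 (0.0526). The ATPase subunits that both condensins share were not called. Smc4 had 77.4, 65.1 and 104 CPM in the mtDNA libraries, against 104, 82.6 and 118 CPM in the blank libraries, with overlap (log2 -0.29, 95% interval -0.55 to -0.03; edgeR adjusted p = 0.123, but 0.00233 without mtDNA 3 and 0.0158 without blank 2), and Smc2 lay at -0.14 (-0.32 to 0.04).

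**Figure D3:**
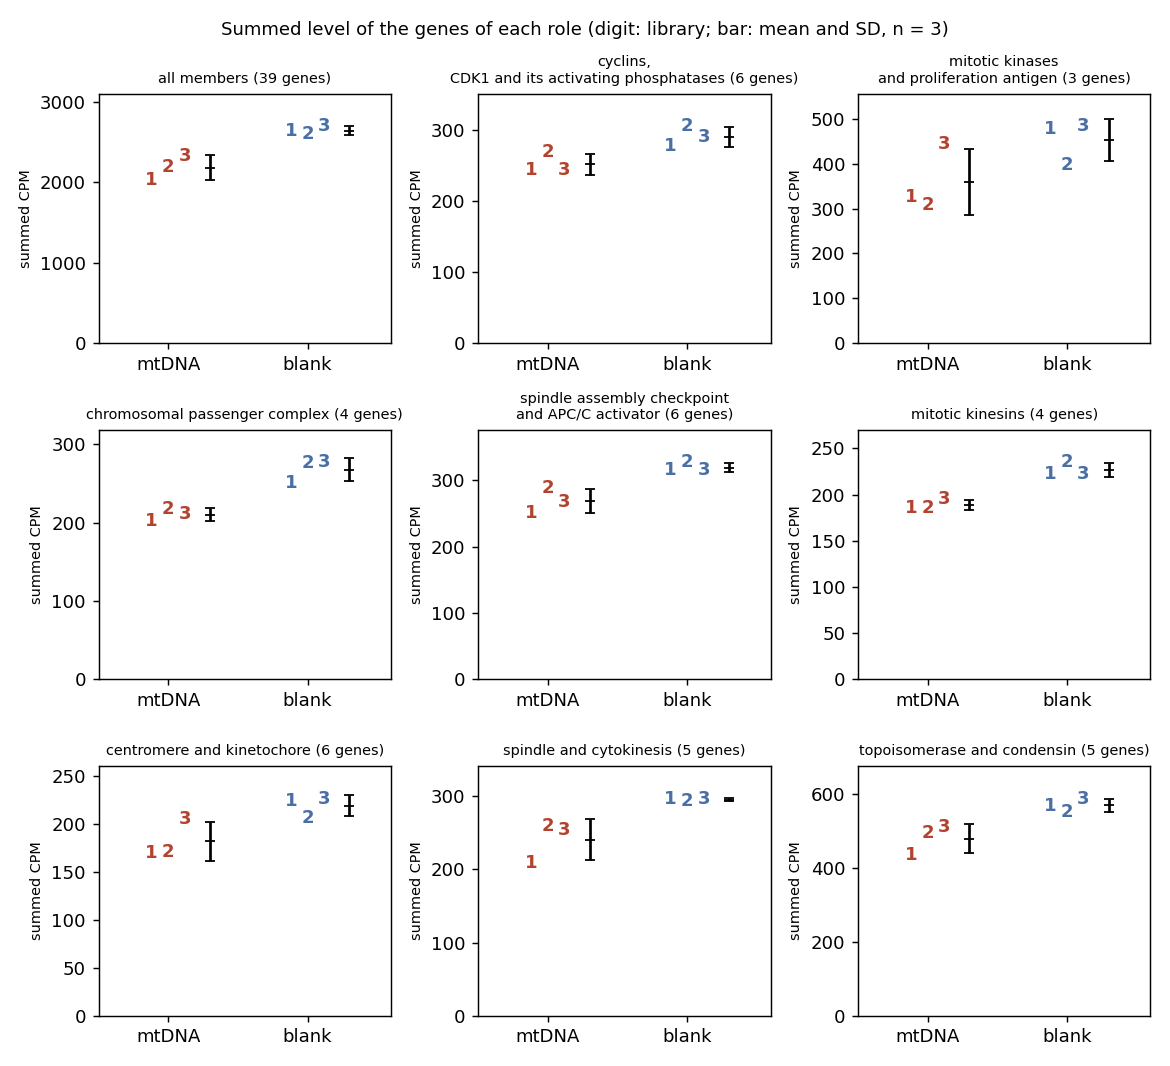
Summed TMM-scaled CPM of the genes of each role in each library (digits 1 to 3, mtDNA left), with the mean and SD (n = 3) beside them; the axes start at 0. The sums do not overlap between groups except for the kinases with Mki67, where mtDNA 3 (443 CPM) exceeds blank 2 (398 CPM); at centromeres and kinetochores mtDNA 3 (205 CPM) comes close to blank 2 (206 CPM).

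Set side by side, the summed CPM of the 8 roles changed by -21.5% to -13.5% in mtDNA libraries. The chromosomal passenger complex stood at 202, 218 and 211 CPM in the mtDNA libraries, against 250.3, 276 and 277 CPM in the blank libraries. The cyclin and CDK1 genes, at the other end, stood at 243, 268 and 243 CPM in the mtDNA libraries, against 277, 305 and 289 CPM in the blank libraries. Whether the roles differ from each other was not tested.

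Per transcript length, Cenpa had the highest level of the 39 genes (51.8 CPM per kilobase in mtDNA and 53.7 in blank cells), followed by Bub3 (42.6 in mtDNA and 48 in blank), Top2a (38.8 in mtDNA and 45 in blank) and Birc5 (35.5 in mtDNA and 44.9 in blank). Cenpf was the lowest, with 1.34 CPM per kilobase in mtDNA and 2.49 in blank cells. The order was nearly the same in both groups (Spearman rho 0.993 across the 39 genes, which share the libraries). Differences between neighbours in this order were not tested.

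**Figure D4:**
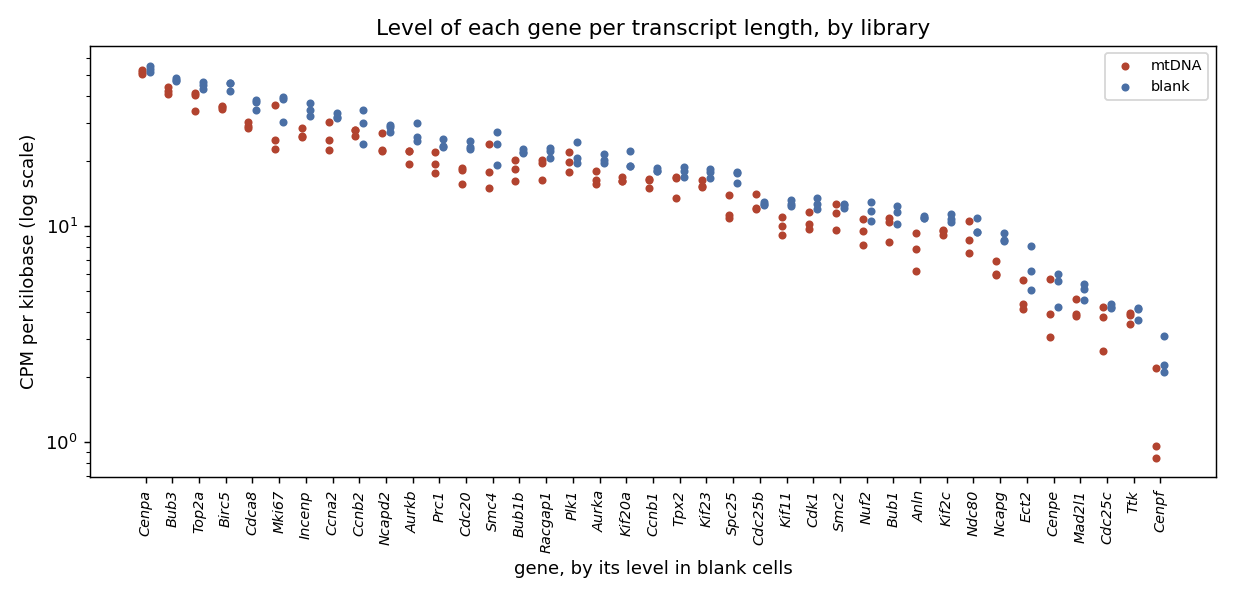
Level of each gene in CPM per kilobase of transcript (log axis) in every library, ordered by the mean level in blank cells, with mtDNA points left of blank points. The genes span from 53.7 (Cenpa) to 2.49 (Cenpf) in blank cells and keep nearly the same order in mtDNA cells.

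Some counts are uncertain because of neighbouring or similar sequence, as the strand setting of the counts is not given in the sources used here. The percents here count windows found in any other gene, and the gene named is the one with the most of them. Ccnb1 shares 35.2% of its read-length windows, most with the pseudogene Ccnb1-ps. Kif20a shares 29.3% of its windows (most with Cdc23), Prc1 22.8% (Rccd1), Ncapg 17.3% (Lcorl) and Ccna2 15.2% (Exosc9). Kif20a, Prc1, Ncapg and Ccna2 each overlap the gene named beside them on the opposite strand, while Ccnb1 has no such overlap. Exons of Cdc20, Plk1, Cdc25b, Cdc25c and Cdca8 also overlap a gene on the opposite strand, those of Top2a and Ncapd2 a small RNA or predicted gene on their own strand. Among the context genes below, Cdk4 shares 28.7% of its windows (most with Tspan31) and Ccnd1 26.1% (most with LTO1).

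Other genes of mitosis and G2/M went mostly the same way. This list and those below were also chosen with earlier results of these data known. Of 80 listed, 78 were tested. Of these, 15 (19.2%) were called lower and 1 higher, where 5.98% of all tested genes were lower and 11.9% higher (medians of -0.23 for the list and -0.01 over all tested genes), and 71 of the 78 were below 0. Espl1, which encodes the cohesin-cleaving enzyme separase, had 38.8, 42.8 and 41.7 CPM in the mtDNA libraries, against 57.7, 53.1 and 51.6 CPM in the blank libraries (log2 -0.39 ± 0.0866, edgeR adjusted p = 0.00242). Spc24, the partner of SPC25, fell by 0.69 (SE 0.183, edgeR adjusted p = 0.00992; 0.0954 without blank 2) and Cdca3, which helps degrade the mitotic brake WEE1, by 0.33 (SE 0.0885, edgeR adjusted p = 0.0112; 0.072 without mtDNA 3 and 0.0567 without blank 2). The exception was Pttg1, which encodes securin, the inhibitor of separase. It had 42.4, 39.8 and 41.5 CPM in the mtDNA libraries, against 25.2, 22.2 and 23.6 CPM in the blank libraries, a rise of log2 0.80 ± 0.101 (edgeR adjusted p = 2.96e-06). Foxm1, which encodes the activator of the G2/M wave, had 32.2, 31.9 and 40 CPM in the mtDNA libraries, against 35.8, 41.3 and 44.6 CPM in the blank libraries (log2 -0.22 ± 0.11, edgeR adjusted p = 0.188). The count of 15 was 7 without mtDNA 1 (3.82% of all genes lower), 6 without blank 2 (4.05%), 8 without blank 3 (3.59%) and 1 in DESeq2 (1.4%). It was 28 with upper-quartile factors (13.4%), 34 with library totals (21.1%) and 26 with the GC trend removed (8.84%).

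Other cell-cycle machinery was counted in the same way. By edgeR 5.98% of all tested genes were called lower and 11.9% higher, and by DESeq2 1.4% lower and 7.44% higher. Lists of 15 and 12 genes are too short to tell 0 calls lower from those shares. Of 15 genes of the anaphase-promoting complex (subunits and the activator Fzr1) 0 were called lower by edgeR (0 at an unadjusted p under 0.05 and 0 by DESeq2) and 1 higher, with a median of -0.05: Anapc5 had 282, 257 and 245 CPM in the mtDNA libraries, against 221, 200 and 186 CPM in the blank libraries (log2 0.37 ± 0.0656, edgeR adjusted p = 0.000276). Of 12 cohesin genes 0 were called in either direction by edgeR or DESeq2 (3 lower and 1 higher at an unadjusted p under 0.05 in edgeR; median -0.03), the smallest p being that of Stag1 (log2 -0.22 ± 0.0794, edgeR adjusted p = 0.0565). Upper-quartile factors gave 3 lower (13.4% of all genes), library totals 4 (21.1%) and the GC correction 4 (8.84%). Among regulators of the DREAM, RB and E2F families, 4 of 20 tested (20%) were lower, against 5.98% of all tested genes, and 0 higher. They were E2f1 (log2 -0.29, edgeR adjusted p = 0.0384) and the 3 with the smallest p, E2f6 (log2 -0.56 ± 0.147, edgeR adjusted p = 0.0096), Rbl2 (-0.28 ± 0.08, 0.0192) and E2f2 (-0.21 ± 0.0633, 0.0228). Without mtDNA 1 the list had 0 calls (E2f6 then at an adjusted p of 0.0546, Rbl2 at 0.0741 and E2f2 at 0.0761), Rbl2 (0.122) and E2f2 (0.0734) were also lost without blank 2, and E2f2 without mtDNA 2 (0.0508) or blank 3 (0.0701). In DESeq2 the list had 0 lower, with E2f6 at an adjusted p of 0.0694, Rbl2 at 0.164 and E2f2 at 0.171.

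Among CDK inhibitors and p53-linked brakes, which hold the cycle back, 3 of 17 tested genes were called higher and 1 lower (5.88%), where 11.9% of all tested genes were higher and 5.98% lower. The list as a whole did not move in 1 direction, with a median of 0.05 and 8 of the 17 below 0. Cdkn1a, which encodes the CDK inhibitor p21, had 566, 549 and 547 CPM in the mtDNA libraries, against 372, 380.3 and 396 CPM in the blank libraries (log2 0.53 ± 0.0484, edgeR adjusted p = 1.96e-08). Plk2, a p53-responsive kinase, was higher (log2 0.64 ± 0.0927, edgeR adjusted p = 1.91e-05), as was Gadd45b, a stress gene (log2 0.38 ± 0.0681, edgeR adjusted p = 0.000252). Cdkn2c, an inhibitor of CDK4 and CDK6, fell by 0.49 (SE 0.153, edgeR adjusted p = 0.0296), a call that ended without mtDNA 1 (0.0584), mtDNA 2 (0.121) or blank 2 (0.184) and in DESeq2 (0.25). In G1 and S phase genes 13 of 43 were called lower (30.2%, against 5.98% of all tested genes) and 3 higher, with a median of -0.25. Cdk4, Mcm3 and Mcm5 had the smallest p among the falls, Cdk4 with 79.2, 77.8 and 78.5 CPM in the mtDNA libraries, against 100.3, 103 and 103 CPM in the blank libraries (log2 -0.38 ± 0.0642, edgeR adjusted p = 0.000129). Of the D-type cyclins 2 of 3 went the other way: Ccnd1, an early response cyclin of G1, had 128, 119 and 109.6 CPM in the mtDNA libraries, against 30.6, 29.7 and 27.7 CPM in the blank libraries (log2 2.01 ± 0.0836, edgeR adjusted p = 3.32e-14), and so did Ccnd2 (log2 1.47 ± 0.0863, edgeR adjusted p = 9.41e-12). Ccnd3, the most abundant of them, had 366, 362 and 349.9 CPM in the mtDNA libraries, against 311, 352 and 319 CPM in the blank libraries, with overlap and no call (log2 0.13 ± 0.0547, edgeR adjusted p = 0.104). Cdk6 rose by 0.22 ± 0.0624 (edgeR adjusted p = 0.0183), a call that ended without mtDNA 3 (0.112) or blank 2 (0.087) and with upper-quartile factors (0.11), library totals (0.263), DESeq2 (0.0894) or the GC trend removed (0.136). None of these lists was compared with another by a test.

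**Figure D5:**
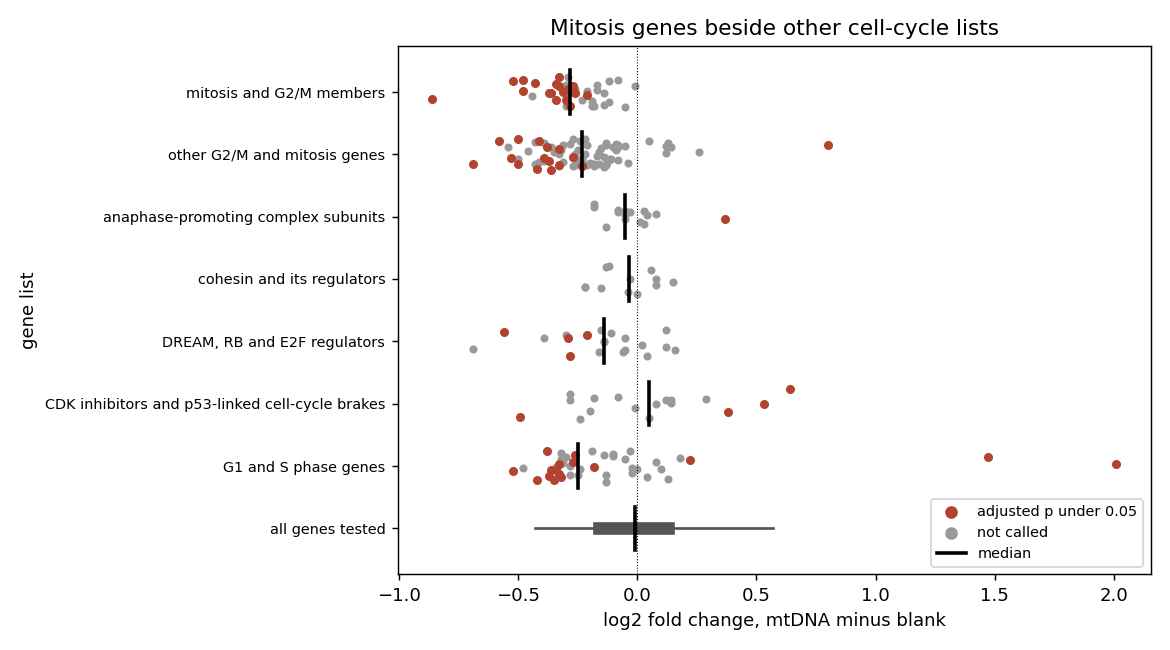
log2 fold change (mtDNA minus blank) of each tested gene in the mitosis list and 6 other cell-cycle lists, with the median as a bar; the bottom row shows the 5th to 95th percentile, quartiles and median of all tested genes. The mitosis genes centre at -0.28 and the other G2/M genes at -0.23, against -0.01 for all tested genes, with Ccnd1 (2.01), Ccnd2 (1.47) and Pttg1 (0.80) far to the right.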

How the data were processed

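The protocols in the labels describe poly(A) RNA, a directional library kit and single-end reads of 75 bases. The treatment label puts 3 libraries in the mtDNA and 3 in the blank group. Raw gene counts, as deposited by the authors, are whole numbers without normalization. Per the submitters' processing notes, FastQC, STAR 2.7.10a, DESeq2 and GRCm39 were used, and per the file headers the columns are STAR gene counts. Neither annotation release nor strand setting is stated there.

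GENCODE M21 (GRCm38) gave symbols for 52083 of 55359 IDs, along with transcript lengths and GC content; no coordinate of it was applied to the counts. All 39 members matched by symbol, and Lin54 of the context lists did not. Shared sequence is the percent of 75-base windows of a transcript found in other genes. Levels per kilobase use the annotated principal transcript.

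The quasi-likelihood test of edgeR 4.0.16 (R 4.3.3) was fitted to all 6 libraries with no block, after edgeR's standard expression filter and TMM scaling, two-sided, with Benjamini-Hochberg adjustment over 11190 genes and a threshold of 0.05. Alternatives were other scaling, filters, DESeq2 1.42.0, limma-voom (limma 3.58.1), a test against a fold of 1.2, robust dispersion, a replicate block, a loess correction for GC content and omission of each library. edgeR and DESeq2 were tried on simulated counts beforehand. Replicates were further apart than counting error alone gives, with a chi-square over its degrees of freedom of 1.54 to 2.28. The members and lists were chosen with earlier results of these data known. Values by library are given for called members and 14 set ones, and from each context list up to 3 genes lower and 3 higher with the smallest p are named, or the smallest p where none was called. Cdkn1a and Foxm1 are named whatever their result. Ly6g, Kit, E2f1 and Ccnd3 were named after their values were seen.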

Additional observations from a re-analysis of the deposited data

How the results depend on the processing

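The count of 19 members lower (5.98% of all genes lower) became 31 with library totals (21.1%) and 29 with the GC trend removed (8.84%). It was 4 in DESeq2 (1.4%) and 0 in the test against a fold of 1.2 (0.492%). Over the omissions of a library it ran from 9 without mtDNA 1 (3.82%) to 18 without mtDNA 3 (4.24%). Upper-quartile factors gave 28 (13.4%). All 19 called genes were also lower under upper-quartile factors, library totals and the GC correction, and all 39 values were below 0 under each scaling. Those settings moved the median of all tested genes from -0.01 to -0.09, -0.13 and -0.05. Such a shift favours lower values, so they are no check on the direction. Median-ratio factors left that median at -0.01 and kept all 19 calls. The summed level, 17.4% lower, was 23.9% lower with library totals (-23.9%) and 14.4% to 20.2% lower over the omissions. Values above 0 appeared for uncalled genes alone, for Ccnb2 without blank 2 (0.02; range over the omissions -0.24 to 0.02) and for Cdc25b without mtDNA 2 (0.02), mtDNA 3 (0.03) or blank 2 (0.00; range -0.09 to 0.03). Neighbouring title numbers as a replicate block gave 24 calls (6.68% of all genes lower). The labels do not say that these numbers mark pairs. Deviations from the group means correlated best between neighbours for every library (r = 0.04 to 0.045, against -0.049 to 0.006). Centring on the group means leaves every library with some best partner, and these r are small, so they cannot settle whether neighbours are pairs. Thinly counted members, such as Cdc25c with 203 reads in all, had wide intervals, which for Cdc25c reached from -0.69 to 0.18.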

Other observations

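Within each group 3 of the 4 members with transcripts of at least 7000 bases varied together. Cenpf, Cenpe and Mki67, with annotated transcripts of 11130, 7910 and 10061 bases, were each highest in library 3 and lowest in library 2, in the mtDNA as in the blank group, and Smc4, of 4316 bases, was as well. The fourth, Mad2l1, of 7557 bases, was highest in library 2 of both groups, with 29.1, 34.9 and 29.6 CPM in the mtDNA and 34.6, 40.9 and 38.7 CPM in the blank libraries. Over the 833 tested genes with transcripts of at least 7000 bases the median log2 deviation from the gene's mean was -0.08, 0.03 and 0.05 in the mtDNA libraries and 0.02, -0.06 and 0.02 in the blank libraries. The pattern was noticed after the values were seen.

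The members had a median GC content of 46.6%, against 50% over all tested genes, and 15 of 39 lay under 45%. The 10 members called lower after removal of the GC trend but not before it were Ccnb1, Bub3, Mad2l1, Kif23, Nuf2, Tpx2, Ect2, Racgap1, Smc2 and Smc4. Of all tested genes 8.84% were called lower after that removal, against 5.98% before it.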
